A study of Mus musculus with 6 samples.

Results

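The matrix metalloproteases Mmp2, Mmp9 and Mmp14, the sheddases Adam10 and Adam17, the secreted protease Adamts1 and the inhibitors Timp1, Timp2 and Timp3 were examined in bEND.3 cells after knockdown of the long non-coding RNA Gm39822. The 9 genes were taken by name from a table of 49315 Ensembl genes, and each name matched 1 row. The rule of choice uses names only, but the set was drawn up with earlier results of these data known. bEND.3 cells are mouse brain endothelium that has been immortalized. In the GapmeR group (4 samples), cells received, by lipid transfection, an antisense LNA GapmeR against Gm39822 at 100 nM. The Negative Control group (2 samples) was given a negative control antisense LNA GapmeR at 100 nM, so all samples share the transfection and the oligonucleotide chemistry. All samples come from the 1 cell line, and a single GapmeR product is named for the knockdown. No label says that the samples were separate cultures, so p-values measure only the spread between these samples.

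Metalloproteases of this kind use a zinc ion to cut proteins outside the cell or at its surface. Secreted gelatinases (MMP2 and MMP9) and membrane-bound MMP14 degrade basement membrane collagen and other matrix, ADAM10 and ADAM17 release the outer part of membrane proteins, and ADAMTS1 cuts proteoglycans. The tissue inhibitors of metalloproteases (TIMPs) bind the active site, and TIMP2 also takes part with MMP14 in the activation of MMP2. In the brain vasculature these enzymes are known for remodelling of the basement membrane and for opening of the blood-brain barrier.

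Total counts were 29261988 to 37117934 per sample. Gm39822 itself had 2, 1, 4 and 2 counts in GapmeR 1 to 4 but 61 and 56 in the controls. All 12 endothelial marker genes passed the filter on low counts. Of these, 7 were lower and 1 was higher by the test used below (5 and 3 when scaled by library size only). Among all genes tested, 20.0% were lower and 25.4% were higher. The endothelial markers summed to 6549 to 7532 CPM (TMM-normalized, scaled to library size) after knockdown and to 8636 and 8875 CPM in the controls. Markers of mural cells or fibroblasts (11 genes) summed to 16.1 to 23.7 CPM in 5 samples and to 81.0 CPM in GapmeR sample 3. Of these 81.0 CPM, Col1a1 made up 38.0 and Col1a2 25.2. Macrophage markers (13 genes) summed to 211 and 230 CPM in GapmeR samples 1 and 2, 363 and 394 CPM in samples 3 and 4, and 172 and 177 CPM in the controls. Lyz2 alone was at 168 and 206 CPM in GapmeR samples 3 and 4. Each macrophage marker tested was highest in these samples except Cd68 and Cx3cr1. Cd68 was at 123, 113, 125 and 116 CPM in GapmeR 1 to 4 but 87.2 and 89.5 CPM in the controls. Of the 13 macrophage markers tested, 3 were higher (Cd68, Fcer1g and Mrc1) and none was lower by the test used below. These lists had no gene at 0 in every sample, and Des, a muscle and pericyte filament, was at 0 in GapmeR sample 4. In bulk RNA, fewer cells of a type and less RNA per cell cannot be told apart.

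Of the 9 genes, 8 reached 5 counts in 2 or more samples and were tested. After knockdown, 6 of these 8 were lower by edgeR's quasi-likelihood test (adjusted p-value under 0.05), and none was higher. Values below are the log2 fold change of GapmeR over control (log2FC) with its standard error (SE). Among all 18234 genes tested, 20.0% were lower and 25.4% were higher by the same rule (3643 and 4625 genes). Scaled by library size only, 2135 were lower and 6106 higher, and of the 8 genes 5 were lower. Of the 6517 genes with a mean of 25 CPM or more, a level chosen after the values were seen and passed by 7 of the 9 genes, 34.1% were lower and 17.9% were higher. The samples of the groups did not overlap in 7 of the 8 genes, with the GapmeR samples below in 6 and above in 1 (Mmp2). Over all genes tested the groups did not overlap in 59.2%, with the GapmeR samples below in 27.3% and above in 31.9%. The median log2 fold change was -0.43 over the 8 genes and 0.03 over all genes tested. Adamts1, Timp3 and Mmp14 had the lowest log2 fold changes, followed by Adam10, Timp2 and Timp1, while Adam17 and Mmp2 did not pass the test and Mmp9 had too few counts to be tested.

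**Figure D1:**
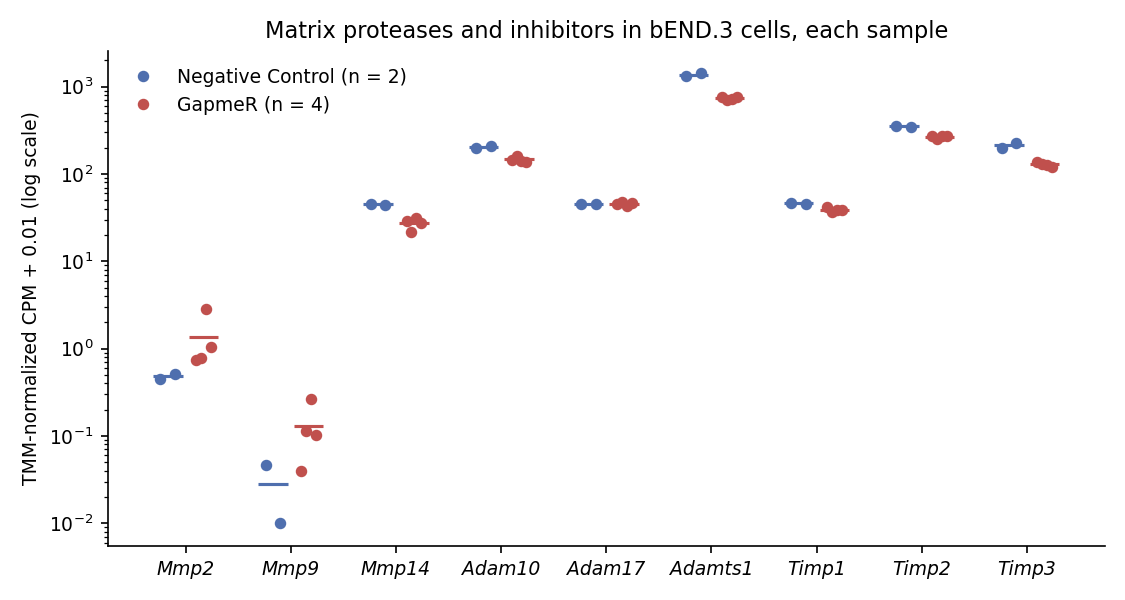
TMM-normalized CPM + 0.01 on a log scale (y axis) of the 9 genes (x axis) in each sample, with blue points for the Negative Control (n = 2), red points for GapmeR (n = 4) and lines for group means. Red points lie below both blue points for Mmp14, Adam10, Adamts1 and the 3 Timp genes, while those of Adam17 surround them and those of Mmp2 lie above them.

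The promoters of the 3 genes with the lowest log2 fold changes are shown because these genes fell together. Each line holds the 250 bases before the annotated start (RefSeq, GRCm38.p6, which is the mm10 build of the files), read 5′ to 3′ on the strand of the gene. Capitals mark matches to the GC box (GGGCGG) or the TATA box (TATAAA) on either strand. No matches overlap each other, and in Mmp14 a pair of GC boxes lie end to end.
Adamts1 (chr16:85803114-85803363, reverse strand): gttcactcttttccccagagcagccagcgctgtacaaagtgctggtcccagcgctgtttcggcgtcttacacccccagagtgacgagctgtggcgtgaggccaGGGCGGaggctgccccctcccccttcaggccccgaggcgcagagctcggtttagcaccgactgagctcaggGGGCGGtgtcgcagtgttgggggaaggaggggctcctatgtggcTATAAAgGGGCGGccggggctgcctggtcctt
Timp3 (chr10:86300162-86300411, forward strand): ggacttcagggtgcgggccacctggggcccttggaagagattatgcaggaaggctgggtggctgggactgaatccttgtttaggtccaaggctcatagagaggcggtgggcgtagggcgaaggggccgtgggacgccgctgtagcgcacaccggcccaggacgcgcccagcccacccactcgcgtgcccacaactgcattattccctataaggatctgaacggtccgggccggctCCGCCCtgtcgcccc
Mmp14 (chr14:54431348-54431597, forward strand): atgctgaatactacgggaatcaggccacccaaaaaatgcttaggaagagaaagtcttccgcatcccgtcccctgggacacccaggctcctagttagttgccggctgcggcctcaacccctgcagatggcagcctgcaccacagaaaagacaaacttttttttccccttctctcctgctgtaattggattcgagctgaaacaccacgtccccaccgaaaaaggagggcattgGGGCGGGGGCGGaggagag
The table of promoters held 7 of the 9 genes, with Mmp2 and Mmp9 not in it, and each was searched on both strands in a window of 300 bases that ends 50 bases after the start. A GC box was found in 7 of 7 windows and in 35.7% of all 32851 promoters. The 250 bases before the start held 54.4% to 74.0% G and C in the 7 genes, and 52.4% in the median promoter. A TATA box was found in 1 of the 7, Adamts1, and in 13.6% of all promoters. AP-1 (TGANTCA), NF-kB (GGGANTTTC) and STAT (TTCNNNGAA) letters were found in 0 of 7 windows and in 7.81%, 1.11% and 8.30% of all promoters. At shares this low 0 of 7 is a common outcome, and only these exact letters were searched, so no lack of sites is concluded. The GC box was present both in genes that fell and in Adam17, which did not pass the test. The background promoters were not matched for G and C content or for expression. Any part of these letters in the changes was not tested.

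Adamts1, which encodes a secreted protease of aggrecan and versican, had the highest level of the 9 genes. Its normalized expression was 756, 698, 726 and 757 CPM in GapmeR 1 to 4 but 1316 and 1426 CPM in the controls. All GapmeR samples lay far below both controls, and their own spread was small. The mean fell from 1371 ± 78.3 (SD, n = 2) to 734 ± 28.3 CPM (n = 4, log2FC -0.90, SE 0.07, 95% confidence interval -1.06 to -0.74, edgeR adjusted p = 7.8e-08). Adamts1 (ENSMUSG00000022893) is on chromosome 16 of mm10, reverse strand, at 85793827 to 85803113.

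Mmp14 encodes the membrane-bound metalloprotease that cuts collagen at the cell surface and activates pro-MMP2. It was measured at 28.7, 21.6, 31.1 and 27.3 CPM in GapmeR 1 to 4 but 45.7 and 43.9 CPM in the controls. GapmeR sample 2 was the lowest, and all GapmeR samples were below both controls. The log2FC was -0.72 (SE 0.11, edgeR adjusted p = 1.5e-04), or 0.606 of the control mean. Mmp14 (ENSMUSG00000000957) is on chromosome 14, forward strand, at 54431598 to 54442456.

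The gelatinase genes were at the bottom of the range. Mmp2, which encodes gelatinase A, had 25, 30, 88 and 33 counts in GapmeR 1 to 4 but 12 and 16 in the controls, or 0.738, 0.771, 2.84 and 1.02 CPM against 0.438 and 0.501 CPM. The GapmeR samples did not overlap the controls, but sample 3 lay far above the other three. The log2 fold change of 1.48 (SE 0.66, 95% confidence interval -0.02 to 2.98) did not pass adjustment (edgeR adjusted p = 0.10). Without GapmeR sample 3 it was 0.85 (edgeR adjusted p = 0.0550), whereas DESeq2's Wald test on all samples gave 1.51 (adjusted p = 0.0147) and edgeR with no filter on low counts gave 1.48 (adjusted p = 2.6e-04). Mmp2 (ENSMUSG00000031740) lies on chromosome 8 from 92827290 to 92853421.

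GapmeR sample 3 was also the sample with the most counts on the collagen I genes, which are markers of fibroblasts and were named after their values were seen. Col1a1 was at 38.0 CPM in GapmeR sample 3, at 2.21 to 4.58 CPM in the other GapmeR samples and at 1.68 and 2.82 CPM in the controls. Col1a2 was at 25.2 CPM in that sample and at most 3.06 CPM elsewhere. Of the other markers in the list, Pdgfrb, Rgs5, Cspg4, Des, Acta2 and Tagln were also highest in that sample, at 0.129 to 2.77 CPM. Pdgfra was not, at 10.2 CPM against 9.43 to 12.1 CPM in the other GapmeR samples, and neither were Dcn and Lum. Of the 10 mural or fibroblast markers tested, 1 was higher (Tagln, a smooth muscle actin-binding protein) and none was lower by the edgeR test. Any part of mural cells or fibroblasts in the Mmp2 values was not tested.

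Mmp9, which encodes gelatinase B, had 1, 4, 8 and 3 counts in GapmeR 1 to 4 but 1 and 0 in the controls. GapmeR sample 3 again held the most. The groups overlapped, with 0.0295 CPM in GapmeR sample 1 and 0.0365 CPM in Negative Control sample 1. The sums were 16 counts against 1, a ratio of 6.97 after scaling for library size, with an exact 95% interval of 1.08 to 292 that covers counting error only. A limit of 3 counts corresponds to 0.0771 to 0.110 CPM in these samples, and Mmp9 had at most 4 counts in 5 of 6 samples. Mmp9 (ENSMUSG00000017737) lies on chromosome 2 from 164940326 to 164955850.

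**Figure D2:**
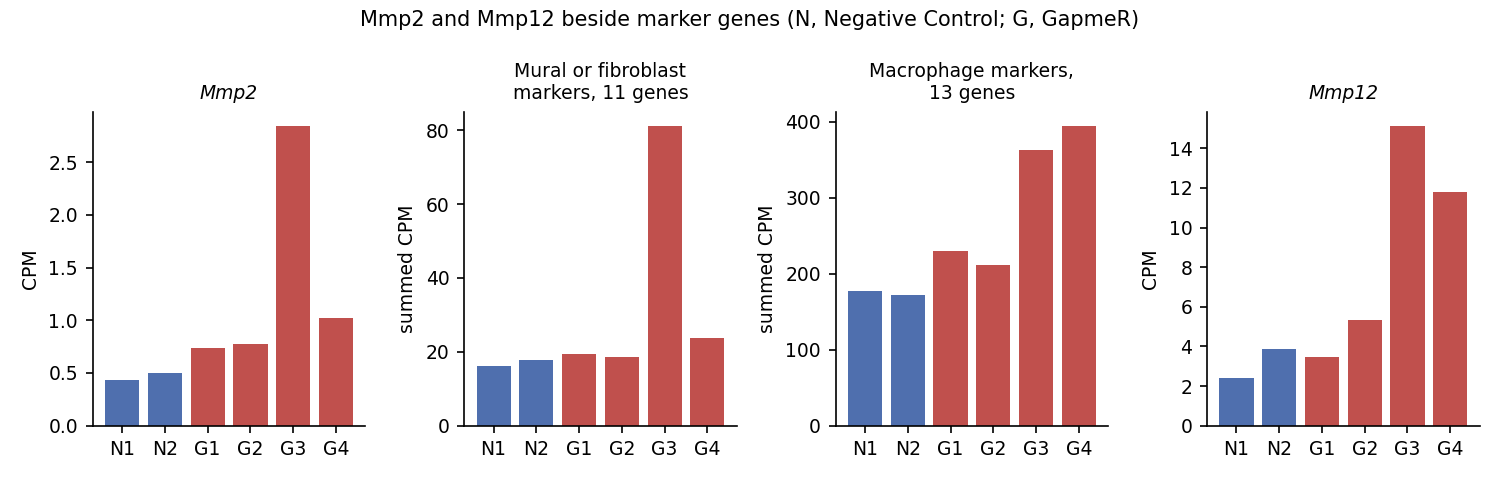
CPM of Mmp2 and Mmp12 and summed CPM of mural or fibroblast markers (11 genes) and macrophage markers (13 genes) on the y axes, with 1 bar for each sample (blue N1 and N2, Negative Control samples 1 and 2; red G1 to G4, GapmeR samples 1 to 4). Mmp2 (2.84 CPM) and the sum of mural or fibroblast markers (81.0 CPM, of which Col1a1 38.0 and Col1a2 25.2) peak in GapmeR sample 3. Mmp12 and the sum of macrophage markers are highest in GapmeR samples 3 and 4.

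Of the sheddase genes, Adam10 fell and Adam17 did not pass the test. Adam10, which cleaves VE-cadherin and Notch receptors, was at 146, 161, 142 and 138 CPM in GapmeR 1 to 4 but 196 and 210 CPM in the controls. All GapmeR samples were below both controls (log2FC -0.47, SE 0.08, edgeR adjusted p = 1.1e-04). Adam17, the TNF-alpha converting enzyme, was at 44.8, 48.0, 43.0 and 47.1 CPM after knockdown and at 45.3 and 45.0 CPM in the controls. The groups overlapped, and the log2 fold change was 0.02 (SE 0.07, 95% confidence interval -0.14 to 0.18, edgeR adjusted p = 0.862). The libraries held 3.26, 3.34, 3.31 and 2.94 Adam10 counts for each Adam17 count in GapmeR 1 to 4 but 4.32 and 4.67 in the controls. This ratio was chosen after the values were seen and was not tested, and its groups did not overlap. In mm10, Adam10 (ENSMUSG00000054693) lies on chromosome 9 from 70678944 to 70780229 and Adam17 (ENSMUSG00000052593) on chromosome 12 from 21323509 to 21373632.

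All 3 TIMP genes fell. Timp3, whose product binds to the matrix and inhibits ADAM17 and ADAMTS enzymes as well as MMPs, was at 136, 131, 128 and 119 CPM in GapmeR 1 to 4 but 201 and 226 CPM in the controls. Its log2 fold change was -0.73 (SE 0.08, edgeR adjusted p = 9.4e-07). Timp2, the partner of MMP14 in pro-MMP2 activation, was at 274, 254, 272 and 270 CPM against 356 and 347 CPM (log2FC -0.39, SE 0.07, edgeR adjusted p = 2.5e-04). In both genes the GapmeR samples lay close together and below both controls.

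Timp1, a secreted inhibitor that is induced by inflammatory signals in many cells, had the log2FC nearest 0 of the 3. It was at 41.4, 36.3, 39.1 and 38.7 CPM in GapmeR 1 to 4 but 47.1 and 45.3 CPM in the controls (log2FC -0.25, SE 0.08, edgeR adjusted p = 0.0138). The groups did not overlap, but the call was lost when counts were scaled by library size only (log2FC -0.10, edgeR adjusted p = 0.287). It was also lost without Negative Control sample 1 (-0.20, edgeR adjusted p = 0.158) or without Negative Control sample 2 (-0.26, edgeR adjusted p = 0.0845). Timp3 lies on chromosome 10 from 86300412 to 86349505 (ENSMUSG00000020044), Timp2 on chromosome 11 from 118301061 to 118355411 (ENSMUSG00000017466) and Timp1 on chromosome X from 20870166 to 20874737 (ENSMUSG00000001131). In the GRCm39 annotation Timp3, Adam17, Mmp2 and Mmp14 share exon bases with a gene on the opposite strand, and without the strand setting reads there cannot be told apart. Timp2 shares exon bases with Cep295nl on the same strand, where strand does not separate the reads, and Timp1 lies within Syn1 but shares 0 exon bases with it.

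**Figure D3:**
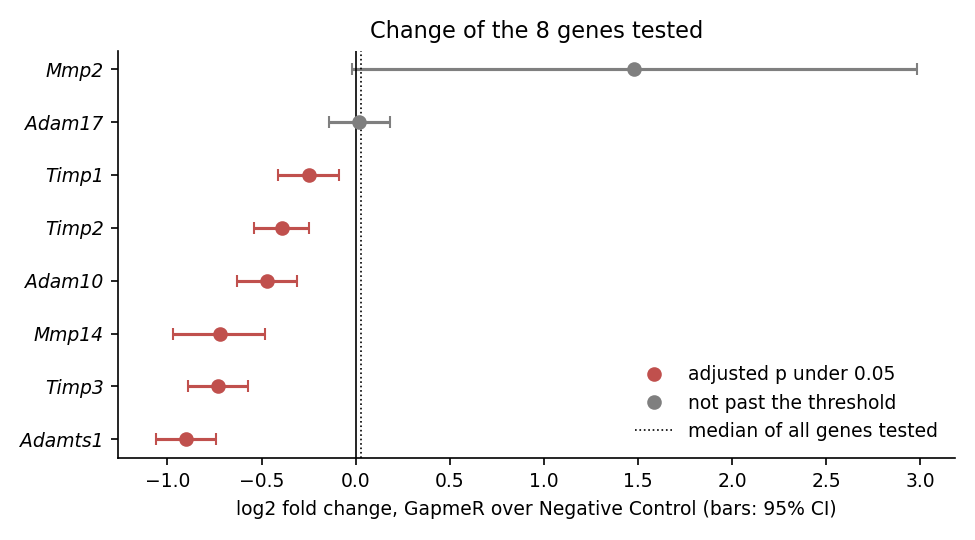
Log2 fold change of GapmeR over Negative Control (x axis) for the 8 genes tested (y axis), with bars for the 95% confidence interval. The 6 genes in red, from Timp1 at -0.25 to Adamts1 at -0.90, lie below 0 and below the dotted line of all genes (0.03), and the intervals of Adam17 and Mmp2 (grey) include 0.

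Levels of different genes were compared as CPM per kilobase of annotated exon. In the controls the order was Adamts1 (251 ± 14.3 CPM per kilobase, SD, n = 2), Timp2 (78.8 ± 1.51), Adam10 (36.4 ± 1.83), Timp3 (26.2 ± 2.12), Timp1 (23.6 ± 0.644), Mmp14 (7.27 ± 0.211), Adam17 (5.28 ± 0.0228), Mmp2 (0.133 ± 0.0127) and Mmp9 (0.00493 ± 0.00697). No neighbours in this order overlapped between the 2 controls. After knockdown Timp1 (19.9 ± 1.06 CPM per kilobase, SD, n = 4) stood above Timp3 (15.8 ± 0.861), and Adam17 (5.34 ± 0.262) above Mmp14 (4.41 ± 0.656), although the samples of the last pair overlapped. With the longest transcript as the length, Timp3 moved above Adam10 in the controls (44.5 against 43.3 CPM per kilobase, with overlapping samples) and above Timp1 after knockdown (26.8 against 21.2).

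Whether proteases and inhibitors changed to the same degree was asked with ratios of counts within each library, which need no scaling between libraries. Log2 ratios of 8 pairs were compared by a 2-sided exact permutation test, for which the smallest p-value with 4 samples against 2 is 0.0667. Adam17 relative to its inhibitor Timp3 was -1.60, -1.45, -1.57 and -1.34 in GapmeR 1 to 4 but -2.15 and -2.33 in the controls on the log2 scale. The groups did not overlap, with a difference of 0.75 (1.68-fold higher, exact permutation p = 0.0667, adjusted over the 8 pairs 0.267). Timp3 relative to Timp1 was 1.72, 1.85, 1.71 and 1.62 after knockdown but 2.10 and 2.32 in the controls, a difference of -0.48 with the same exact permutation p-values. As a share of the counts of all 3 TIMP genes, Timp3 made up 30.1%, 31.1%, 29.2% and 27.8% in GapmeR 1 to 4 but 33.3% and 36.5% in controls. Timp1 made up 8.61% to 9.17% after knockdown and 7.79% and 7.33% in controls, and Timp2 60.3% to 63.1% against 58.9% and 56.1%. These shares were not tested, and none of them overlapped between groups. As parts of the same total they depend on each other and are not separate observations.

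The log2 ratio of Mmp14 to Timp3 differed by -0.00 between group means (-2.25 in both, SD 0.25 and 0.16, exact permutation p = 1.00). Relative to Timp2 it was lower in all GapmeR samples, by 0.34 on the log2 scale on average, with a mean of -3.31 ± 0.18 (SD, n = 4) against -2.97 ± 0.01 (SD, n = 2, exact permutation p = 0.133). Adamts1 relative to Timp3 differed by -0.17 and Adam10 relative to Timp1 by -0.22, and in both the groups overlapped (exact permutation p = 0.200 and 0.267). Mmp2 relative to Timp2 was higher in all GapmeR samples (difference 1.64, exact permutation p = 0.133), and Mmp9 relative to Timp1 rested on the few counts given above (difference 2.17, exact permutation p = 0.200). No pair passed adjustment, which this design does not allow.

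**Figure D4:**
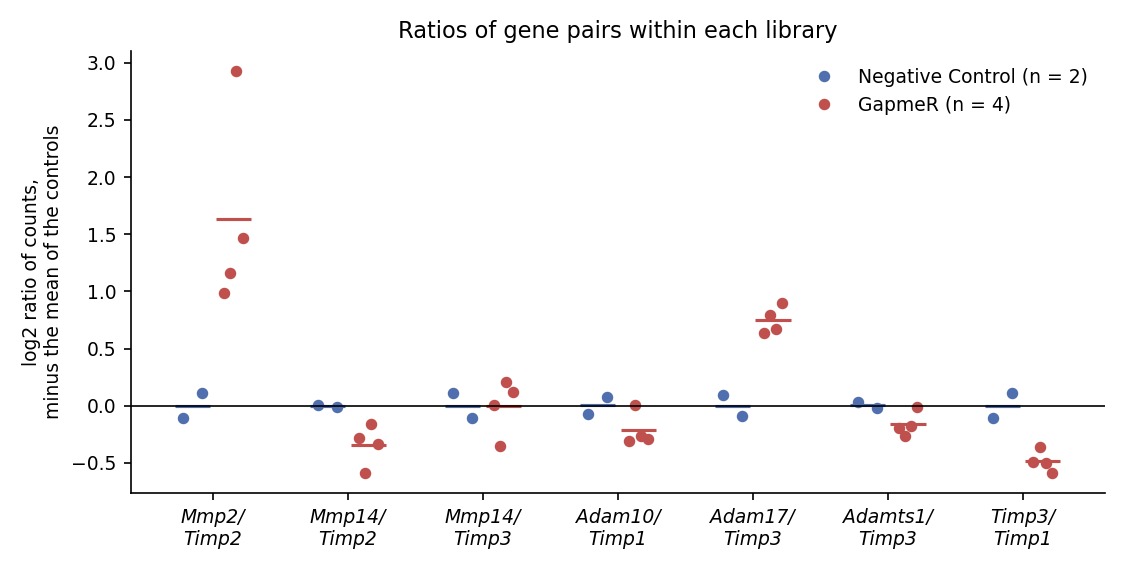
Log2 ratio of counts of 7 gene pairs within each library, minus the mean of the controls (y axis), with blue points for the Negative Control (n = 2), red points for GapmeR (n = 4) and lines for group means. Adam17/Timp3 and Mmp2/Timp2 are higher and Mmp14/Timp2 and Timp3/Timp1 lower in every GapmeR sample, and Mmp14/Timp3 is centred on 0 in both groups (Mmp9/Timp1 is left out for its few counts).

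Counts in this list and those below stand beside 20.0% of all genes tested lower and 25.4% higher. At a mean of 25 CPM or more, these shares were 34.1% and 17.9%. Of the 20 other Mmp genes, some rose and others fell. Of the 17 tested, 5 were higher and 2 were lower by the edgeR test, and the median log2 fold change was 0.19. Among those called higher, Mmp21 and Mmp25 reached 5 counts in no control and passed the filter through the GapmeR samples alone. Mmp21 had 24, 36, 30 and 32 counts in GapmeR 1 to 4 but 0 and 2 in the controls. Mmp13, a collagenase, fell from 15.1 ± 0.306 (SD, n = 2) to 2.95 ± 0.335 CPM (n = 4, log2FC -2.35, SE 0.13, edgeR adjusted p = 4.8e-10). Mmp3, a stromelysin that can activate pro-MMP9, was at 19.4, 19.4, 17.4 and 19.3 CPM in GapmeR 1 to 4 but 11.3 and 10.7 CPM in the controls (log2FC 0.78, SE 0.10, edgeR adjusted p = 7.2e-06). Mmp25, a membrane-bound protease of leukocytes, had 55, 57, 42 and 45 counts after knockdown and 4 and 1 in the controls (log2FC 4.05, SE 0.46, edgeR adjusted p = 2.6e-06), so its fold change rests on few control counts. Mmp12, the macrophage elastase, was named after its values were seen and did not pass the test (log2FC 1.49, edgeR adjusted p = 0.213). It was at 3.48, 5.32, 15.1 and 11.8 CPM in GapmeR 1 to 4 but 2.41 and 3.85 CPM in the controls. The sum of macrophage markers was highest in the same GapmeR samples 3 and 4, but Cd68 and Cx3cr1 did not follow it. The part of macrophages in the Mmp12 values was not tested.

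Among other inhibitors, Reck, a membrane-anchored inhibitor of MMPs, rose from 3.33 ± 0.454 (SD, n = 2) to 4.77 ± 0.839 CPM (n = 4, log2FC 0.52, SE 0.18, edgeR adjusted p = 0.0302). Timp4 had at most 5 counts in a sample and was not tested. Of the 7 other Adam metalloproteases, 5 were tested, with 3 higher and 1 lower (3 and 0 when scaled by library size only). Adam12 (log2FC 0.98), Adam8 (0.78) and Adam19 (0.30) were the 3 that rose, with edgeR adjusted p-values of 7.5e-05, 0.00154 and 0.0330. Adam8 was at 38.4, 39.4, 51.4 and 51.5 CPM in GapmeR 1 to 4 but 28.7 and 23.9 CPM in the controls. It was highest in GapmeR samples 3 and 4, as the sum of macrophage markers was. The part of macrophages in these Adam8 values was not tested. Of the 18 other Adamts genes, 11 were tested, with 3 higher and 2 lower (6 and 2 when scaled by library size only). Those higher include Adamts13, which passed the filter through GapmeR samples alone. It had 5, 3, 1 and 5 counts in GapmeR 1 to 4 and 0 and 0 in the controls (log2FC 4.80, SE 1.72). Adamts5, an aggrecanase, fell with Adamts1, from 197 ± 6.02 (SD, n = 2) to 125 ± 2.84 CPM (n = 4, log2FC -0.65, edgeR adjusted p = 9.2e-07). Adamts10, which acts on fibrillin microfibrils, rose (log2FC 1.13, edgeR adjusted p = 1.7e-05), as did Adamts6 at 0.35 (edgeR adjusted p = 0.0461).

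Proteins that carry ADAM10 and ADAM17 to the surface were listed with 9 genes, of which 8 were tested, 4 were lower and none was higher. Scaled by library size only, 2 were lower (Tspan5 and Tspan14) and 2 higher (Rhbdf1 and Rhbdf2). Tspan5 and Tspan14, tetraspanins that escort ADAM10, fell with log2 fold changes of -0.86 (edgeR adjusted p = 1.2e-07) and -0.60 (edgeR adjusted p = 2.3e-06). The iRhom genes Rhbdf1 (log2FC 0.11) and Rhbdf2 (0.14), whose products escort ADAM17 and which were named after their values were seen, did not pass the test with TMM scaling. Frmd8, a cofactor of the iRhoms, fell (log2FC -0.32, edgeR adjusted p = 0.00261). Of 20 substrates of ADAM10 or ADAM17, 18 were tested, with 9 lower and 2 higher (7 and 3 when scaled by library size only). Among genes with a mean of 25 CPM or more, 34.1% were lower and 17.9% higher with TMM scaling. The hyaluronan receptor gene Cd44 fell from 111 ± 1.43 (SD, n = 2) to 58.3 ± 1.58 CPM (n = 4, log2FC -0.93, edgeR adjusted p = 1.2e-08), and Vcam1 fell (log2FC -1.21, edgeR adjusted p = 4.0e-08). App, the amyloid precursor, rose from 276 ± 4.69 (SD, n = 2) to 411 ± 27.7 CPM (n = 4, log2FC 0.57, edgeR adjusted p = 2.7e-05).

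Proprotein convertases, which remove the prodomains of MMP14 and the ADAMs, had 1 of 4 genes higher (Pcsk7, log2FC 0.48, edgeR adjusted p = 6.0e-05) and 1 lower (Pcsk5, -0.96, edgeR adjusted p = 9.3e-04). Furin, named after its values were seen, had a log2 fold change of -0.19 (edgeR adjusted p = 0.0630). In the plasminogen system, 2 of the 6 genes tested were higher and 2 lower. The urokinase receptor gene Plaur fell from 495 ± 4.63 (SD, n = 2) to 234 ± 8.37 CPM (n = 4), and Plat, the tissue plasminogen activator, fell (log2FC -1.11, edgeR adjusted p = 2.7e-07). Serpinf2, the inhibitor of plasmin, had 498, 502, 469 and 585 counts in GapmeR 1 to 4 but 8 and 10 in the controls (log2FC 5.63, SE 0.23, edgeR adjusted p = 1.6e-11). Among 14 genes of basement membrane and ADAMTS1 substrates, 6 were lower and 3 were higher (5 and 4 when scaled by library size only). Col4a2, a chain of collagen IV, fell (log2FC -0.87, edgeR adjusted p = 1.4e-07) and Thbs1, a matrix glycoprotein cut by ADAMTS1, fell as well (log2FC -0.92, edgeR adjusted p = 2.2e-07), while the laminin gene Lama4 rose (log2FC 0.71, edgeR adjusted p = 4.5e-06).

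**Figure D5:**
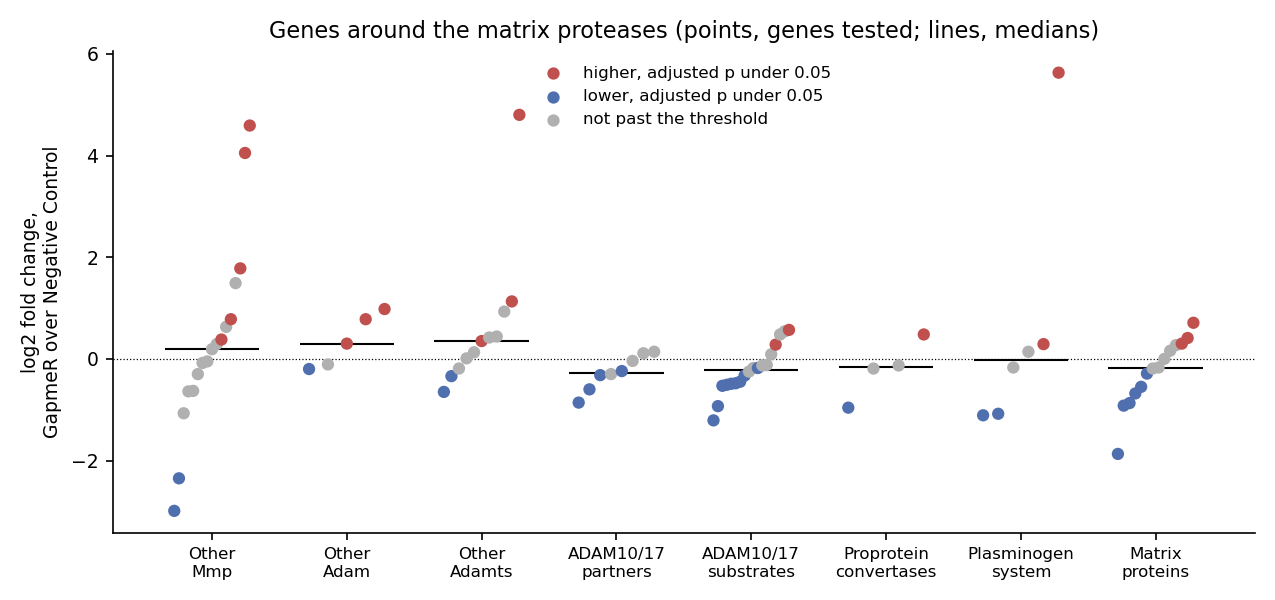
Log2 fold change of GapmeR over Negative Control (y axis) of the genes tested in 8 lists (x axis), with red and blue points for genes higher and lower at an adjusted p-value under 0.05, grey points for the rest and lines for medians. Other Mmp and Adamts genes spread to both sides of 0, while the 4 called partners of ADAM10 and ADAM17 lie below it with the TMM scaling used here.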

How the data were processed

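Ribosomal RNA was removed from RNA of bEND.3 cells before paired-end sequencing. The values deposited by the authors are raw counts of reads per Ensembl gene, neither normalized nor filtered, from trimmed reads aligned to mm10 in the bcbio-nextgen pipeline. The submitters' processing notes name Trimmomatic 0.36, STAR 2.5.2b and Subread 1.5.2. The strand setting is not given in the sources used here, so a gene and its antisense partner may share reads. Groups came from the sample labels, and 1 further column of per-sample counts, named like the control columns but matching no sample label, was not used. The study describes 4 samples in each group, of which 2 negative controls were analysed here.

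Genes reaching 5 counts in 2 or more samples were tested with edgeR 4.0.16 in R 4.3.3 (TMM, robust quasi-likelihood, Benjamini-Hochberg over all genes tested). CPM values are TMM-normalized. Median-of-ratios and library-size scaling, DESeq2 1.42.0, limma-voom (limma 3.58.1), 2 other filters, a replicate block and each sample left out were alternatives. Exon lengths came from GENCODE on GRCm39, coordinates and promoters from RefSeq on GRCm38.p6. The scripts were tested on simulated data. Python 3.11.15 and scipy 1.17.1 were used.

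Genes named are the 9 members, Gm39822 and, of each list, up to 3 with the largest change among called genes whose groups do not overlap and whose mean reaches 1 CPM. Timp4, Mmp12, Mmp21, Adamts13, Rhbdf1, Rhbdf2, Furin and the overlapping genes fall outside this rule and were named after their values were seen. The same holds for Des, Tagln, Col1a1, Col1a2 and the other cell type markers named. The members and lists were chosen with earlier results of these data known. Replicate numbers come from the titles. Deviations of same-numbered samples correlated at -0.0692 and 0.135 over 10922 genes, so the numbers were not taken to pair the samples.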

Additional observations from a re-analysis of the deposited data

Results flagged for a closer look

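Each of 17 groups of GapmeR values, the CPM of the 9 genes and the log2 ratios of 8 pairs, was examined for a sample whose gap to the nearest other sample is a large share of the range of the group. Chance marks about 1 in 20 such groups, and 2 of the 17 were above the 95% critical value of Dixon's test. Mmp2 in GapmeR sample 3 had a gap of 0.865 of the range, at 2.84 CPM against 0.738, 0.771 and 1.02 CPM in the other GapmeR samples, with Col1a1 at 38.0 CPM in the same sample. The log2 ratio of Adam10 to Timp1 in GapmeR sample 2 had a gap of 0.869, at 2.14 against 1.82, 1.86 and 1.84. Adam10 was highest and Timp1 lowest in that sample among the GapmeR samples, at 161 and 36.3 CPM.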

How the results depend on the processing

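Adamts1, Timp3, Mmp14, Adam10, Timp2 and Gm39822 kept their direction and an adjusted p-value under 0.05 in all alternatives that gave a value. Gm39822 gave none with at least 10 counts in every sample, nor without either control, where it did not pass the filter. Scaling by library size only moved the median log2 fold change of all genes from 0.03 to 0.17, took Timp1 to -0.10 (edgeR adjusted p = 0.287) and left 2135 genes lower in place of 3643. The lists of other genes were counted again under the scalings after seeing the data. Without Negative Control replicate 1 or 2, 2262 and 1930 genes were lower, and over all samples left out in turn the number was 1930 to 3949. Mmp2 passed the threshold with DESeq2's Wald test (1.51), with no filter (1.48) and without GapmeR replicate 1 (1.68), which made 1 of the genes higher in place of 0. With each sample left out, Mmp2 was at 0.85 to 1.68, Timp1 at -0.28 to -0.20 and Adam17 at -0.00 to 0.07, with the sign of Adam17 reversed without GapmeR replicate 2. With the replicate number as a block, Mmp2 was at 0.68 (edgeR adjusted p = 0.161), where GapmeR replicates 3 and 4 have no same-numbered control, and the block changed no call. With a pseudocount of 5 counts, the ratio of Mmp9 to Timp1 differed by 0.71 in place of 2.17. Per kilobase of the longest transcript, control levels were 0.146 (Mmp2), 13.0 (Mmp14), 25.1 (Timp1), 91.9 (Timp2), 44.5 (Timp3), 43.3 (Adam10), 8.33 (Adam17) and 273 (Adamts1) CPM. Scaled by library size only, they were 6.79 (Mmp14), 22.0 (Timp1), 73.6 (Timp2), 34.0 (Adam10), 4.93 (Adam17) and 234 (Adamts1) CPM per kilobase of exon. The cause of the moves was not tested. Depth limited Mmp9, whose change could not be measured closely.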

Other observations

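In the GRCm39 annotation several of the genes overlap others. The counts of the neighbours are given because reads in shared stretches may be assigned to either gene or to neither. Timp1 lies inside Syn1 and Timp3 inside Syn3, both on the opposite strand. Syn1, which shares no exon bases with Timp1, fell after knockdown (log2FC -0.78, edgeR adjusted p = 0.0234), from 183 and 233 counts to 104 to 192. Syn3, which shares 1734 exon bases with Timp3, had 40 to 61 counts after knockdown and 32 and 44 in the controls (log2FC 0.27, edgeR adjusted p = 0.395). Cep295nl, on the same strand within Timp2, had 49, 57, 46 and 39 counts in GapmeR 1 to 4 but 7 and 9 in the controls (log2FC 2.36, SE 0.33, edgeR adjusted p = 2.7e-05), while Timp2 itself fell. Iah1, which shares 341 exon bases with Adam17 on the opposite strand, rose (log2FC 0.50, edgeR adjusted p = 0.00590).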
